A study of Homo sapiens with 12 samples.

Results

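The 10 genes described here decide how a cell withstands ferroptosis and how it handles iron. They are AIFM2, GPX4, SLC7A11, SLC3A2, ACSL4, FTH1, FTL, TFRC, NFE2L2 and KEAP1, taken as a fixed list from 20037 protein-coding genes of the gene table, and their N4-acetylcytidine (ac4C) peaks were compared between control and NAT10-knockdown SW620 cells. SW620 is a human colorectal cancer cell line. The control cells carried a control shRNA (shControl, genotype given as WT) and the knockdown cells an shRNA against NAT10 (shNAT10), both brought in by lentivirus and selected with puromycin as stable lines, and 3 immunoprecipitated libraries per group had a peak list. Which NAT10 shRNA was used and whether the replicates came from separate cultures is not given in the sources used here, so the spread between libraries may be technical. In acetylated RNA immunoprecipitation sequencing (acRIP-seq), fragmented RNA is pulled down with an antibody against ac4C, and stretches rich in reads are listed as peaks. A peak was given to a gene when its midpoint lay in the gene's GRCh38 span on the same strand. By this rule a peak was listed in some library for 6 of the 10 genes and for 12291 of all 20037. The lists hold between 17877 and 28752 peaks per library and no read counts, so the depth is unknown, and a missing peak says only that none was listed. The input libraries were not analysed here, so a change in ac4C per transcript and a change in the amount of the transcript cannot be told apart. Within the span of NAT10 itself, the enzyme that places ac4C, 1, 0 and 2 peaks were listed in the control and 2, 0 and 1 in the knockdown libraries, which does not measure how far NAT10 mRNA was lowered.

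Ferroptosis is a form of cell death in which iron drives the peroxidation of membrane lipids. Cells hold it back along parallel routes. The cystine transporter made of SLC7A11 and SLC3A2 feeds glutathione synthesis, and GPX4 uses glutathione to reduce lipid hydroperoxides. AIFM2, also called FSP1, regenerates reduced coenzyme Q at the membrane independently of GPX4. ACSL4 works in the opposite sense by activating the polyunsaturated fatty acids that become oxidised. TFRC takes up transferrin-bound iron, the ferritin chains FTH1 and FTL store it, and the transcription factor NRF2 (NFE2L2), held in check by KEAP1, drives many of the protective genes.

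In several of these genes a peak lay over an annotated transcription start, so the sequences there are shown first. Each runs 5′ to 3′ on the transcript strand from 100 bases before to 30 bases after a RefSeq start (GRCh38.p14), and capitals mark the bases covered by every peak listed over that start. The windows were chr10:70132796-70132925 on the minus strand for AIFM2, chr11:62880796-62880925 on the plus strand for an internal start of SLC3A2, chr3:196082061-196082190 on the minus strand for TFRC, chrX:109733228-109733357 on the minus strand for ACSL4, chr2:177264698-177264827 on the minus strand for NFE2L2 and chr19:10503327-10503456 on the minus strand for KEAP1.
AIFM2: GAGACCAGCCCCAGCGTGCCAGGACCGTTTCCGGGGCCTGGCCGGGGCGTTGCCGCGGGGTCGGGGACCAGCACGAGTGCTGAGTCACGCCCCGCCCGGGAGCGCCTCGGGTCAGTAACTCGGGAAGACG
SLC3A2: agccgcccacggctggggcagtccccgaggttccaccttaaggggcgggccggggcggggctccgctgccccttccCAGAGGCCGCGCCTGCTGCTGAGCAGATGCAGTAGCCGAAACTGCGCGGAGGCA
ACSL4: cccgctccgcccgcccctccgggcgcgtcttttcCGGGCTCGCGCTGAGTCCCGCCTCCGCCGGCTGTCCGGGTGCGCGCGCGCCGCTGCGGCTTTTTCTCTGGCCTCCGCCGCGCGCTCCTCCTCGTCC
TFRC: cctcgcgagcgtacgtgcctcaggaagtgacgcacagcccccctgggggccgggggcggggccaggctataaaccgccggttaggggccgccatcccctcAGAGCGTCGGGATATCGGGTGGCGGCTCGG
NFE2L2: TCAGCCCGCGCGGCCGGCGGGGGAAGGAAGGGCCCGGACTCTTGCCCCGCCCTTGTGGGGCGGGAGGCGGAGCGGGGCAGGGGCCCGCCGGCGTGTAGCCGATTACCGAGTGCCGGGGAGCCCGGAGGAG
KEAP1: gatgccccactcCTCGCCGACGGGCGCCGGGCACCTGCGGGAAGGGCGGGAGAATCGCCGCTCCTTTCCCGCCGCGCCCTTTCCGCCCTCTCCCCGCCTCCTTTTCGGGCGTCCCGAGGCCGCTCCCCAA
In AIFM2 and NFE2L2 all 130 bases were under the peak, including the 100 before the annotated start. In TFRC the peak began exactly at the annotated start, so that only the 30 bases after it are in capitals. The peaks over the starts of AIFM2, SLC3A2, ACSL4, TFRC and NFE2L2 were listed in all 6 libraries, that of KEAP1 in 5 and that of FTL, whose sequence is given with its values, in 4. The letters CCG, the context in which ac4C is known in ribosomal and transfer RNA, were counted on the transcript strand in the 300-base window from 250 bases upstream of each start. The windows with a peak over the start held 20 in NFE2L2 and ACSL4, 17 in KEAP1, 10 in AIFM2 and TFRC, 9 in FTL and 8 in SLC3A2, against a median of 4 over the 35116 windows of the table, 80.9% of which held at least 1. Windows at starts without a peak held like numbers, with 17 at another start of NFE2L2, 11 at another of KEAP1, 6 and 12 at the other starts of SLC3A2 and 14, 15 and 16 at those of GPX4. A count of letters is a description of the window, most of which lies before the annotated start, and marks no modified base.

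No gene of the 10 had a peak in every library of one group while lacking it throughout the other. Over all 12291 genes with a peak, 0.334% had peaks only in the 3 control and 0.366% only in the 3 knockdown libraries. The peak numbers of the groups overlapped in every one of the 10 genes as well, where 0.659% of all genes had fewer peaks in each knockdown than in each control library and 1.57% had more. With 10 genes these small shares would leave few or none in any case, so the zero is not a result about the 10 genes. In total the 10 genes held 11, 11 and 11 peaks in the control and 16, 9 and 13 in the knockdown libraries. The highest number came from knockdown replicate 1, which also has the longest list, and the lowest from knockdown replicate 2, which has the shortest.

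**Figure D1:**
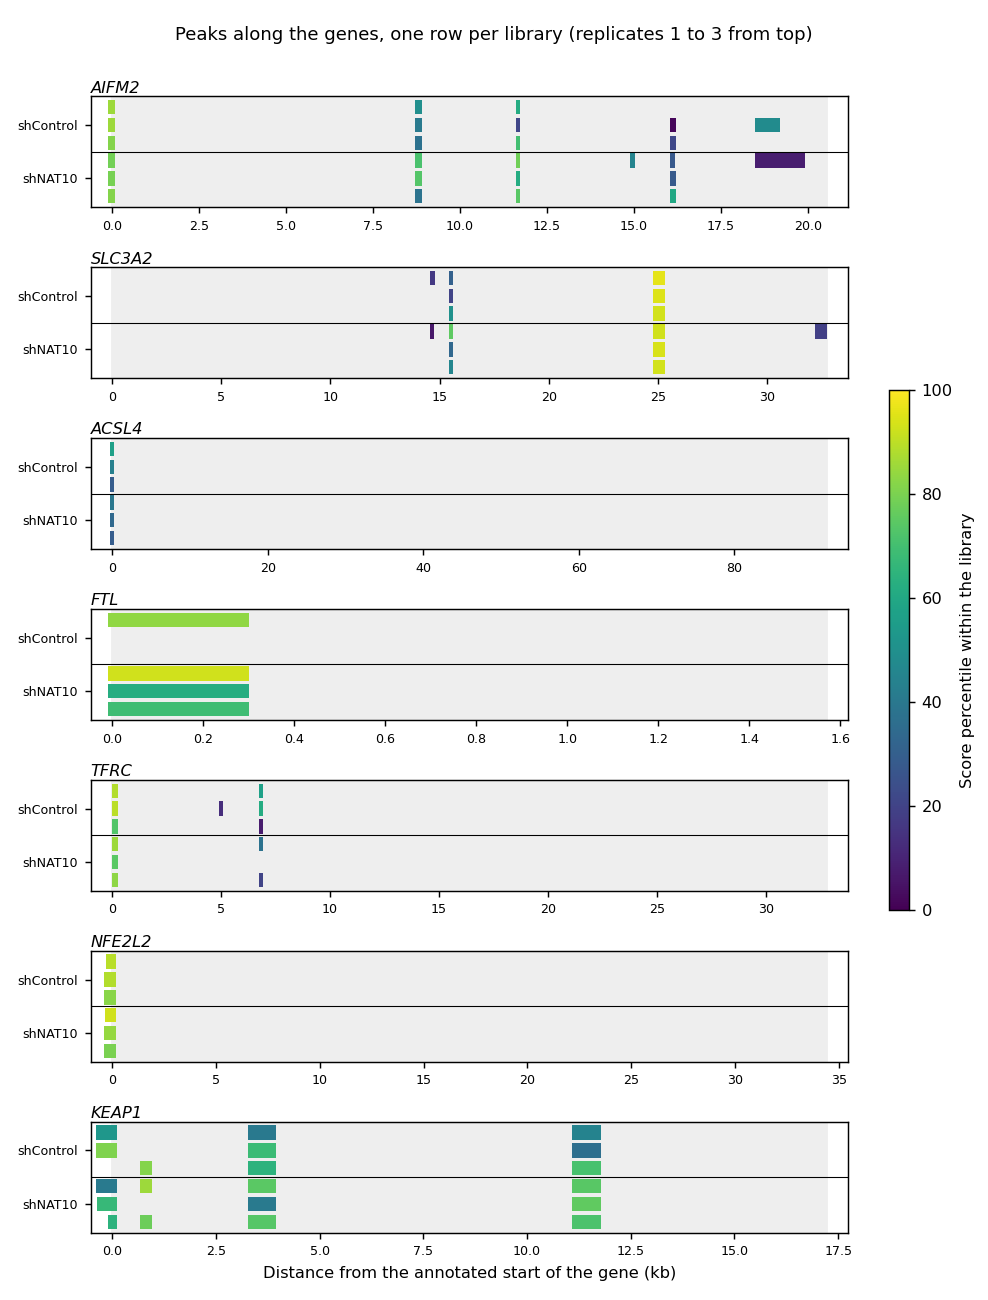
Position of each listed peak in the 7 genes that had one, as distance in kb from the annotated start of the gene along its strand (grey, the gene span; one row per library, replicates 1 to 3 from the top, controls above the line); colour gives the score percentile within the library, and very narrow peaks are drawn wider than to scale. The same few positions recur in both groups, and peaks at or across the start are seen in AIFM2, ACSL4, FTL, TFRC, NFE2L2 and KEAP1.

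AIFM2, the gene of the coenzyme Q reductase FSP1, carried the most peaks of the 10 in total and still had them after NAT10 knockdown. By midpoint it had 2, 4 and 3 peaks in the control and 5, 3 and 3 in the knockdown libraries. The means were 3.0 ± 1.0 (SD, n = 3) and 3.67 ± 1.15 (SD, n = 3), a difference within the spread between libraries (exact permutation test, p = 0.7, adjusted p = 1 over all genes). Every permutation test here was two-sided, and 3 against 3 libraries allow no p below 0.1. The peaks lay in 6 merged regions along the minus strand of chromosome 10. A region is a set of peaks from the 6 libraries that overlap by at least 1 base.

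The strongest AIFM2 region, chr10:70132734-70132934, lay across the annotated start, from 109 bases before to 91 bases after it. Its midpoint fell 9 bases outside the gene span, so the midpoint rule does not count it, although it had a peak with the same start and end in all 6 libraries. The score has no stated scale, so each peak was ranked by its score within its own library and given as a percentile, where 100 is the highest. In the control libraries the start region ranked at the 85.5, 85.5 and 81.4 percentile and in the knockdown libraries at 78.9, 79.4 and 81.3. All knockdown values lay below all control values, although the nearest pair, both from replicate 3, differed by a fraction of a point. The means were 84.1 ± 2.41 and 79.8 ± 1.3 (SD, n = 3 each), a difference of -4.3 (exact permutation test, p = 0.1, the smallest possible; adjusted p = 0.669 over all regions with a peak in all 6 libraries). By overlap of any base, 4.04% of such regions in genes had percentiles that were all lower after knockdown. The scores as deposited overlapped between the groups, from 1575.89 to 1999.35 in the control and from 1511.43 to 1938.13 in the knockdown libraries.

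Inside the AIFM2 gene lay 5 regions, of which 2 were found in all 6 libraries and could be tested. The first of these, at chr10:70123907-70124102 near the middle of the gene, ranked at 49.4, 40.9 and 37.3 in the control libraries and at 71.3, 73.2 and 38.2 in the knockdown libraries. Knockdown replicates 1 and 2 stood above every control library and knockdown replicate 3 fell among them (difference of the means 18.4, exact permutation test, p = 0.3). At chr10:70121092-70121211 the percentiles were 61.0, 20.8 and 69.7 in the control and 78.3, 61.6 and 74.0 in the knockdown libraries, where the low mean of the control libraries came from replicate 2 (difference 20.8, exact permutation test, p = 0.2). Without control replicate 2 this difference was 5.95. Another region at chr10:70116622-70116774 was listed in 2 control libraries, at 1.35 and 21.7, and in all 3 knockdown libraries, at 27.7, 28.0 and 60.1. The remaining AIFM2 peaks were scarce. A region toward the 3′ end, chr10:70112895-70114329, was listed in control replicate 2 at 47.8 and in knockdown replicate 1 at 8.13, so that it ranked lower in the knockdown library. The region chr10:70117812-70117920 was listed only in knockdown replicate 1, at 45.2. When peaks in the lower 50% of scores of a library were dropped, AIFM2 had 1, 0 and 1 peaks in the control and 2, 2 and 2 in the knockdown libraries, so that the groups no longer overlapped (exact permutation test, p = 0.1, adjusted p = 1), as was true in that direction of 1.48% of the 8395 genes with such a peak. The peak at chr10:70123907-70124102 in control replicate 1, at 49.4, fell just under this cut. With it kept, the groups would have overlapped.

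GPX4, the glutathione-dependent lipid hydroperoxidase on chromosome 19 (1103994 to 1106779), and SLC7A11, the cystine-carrying chain of the transporter on chromosome 4 (138164097 to 138242349), had no listed peak in any of the 6 libraries, by midpoint or by any base. The nearest peak on the strand of GPX4 lay 17366 bases away and that on the strand of SLC7A11 lay 841784 bases away. No difference between the groups can be read for either gene.

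SLC3A2, the glycoprotein chain that anchors the transporter in the membrane, was by contrast among the highest-scored of all. Its region chr11:62880872-62881447 covered an internal RefSeq start, the one whose sequence is given above, and carried a score of exactly 3100 in every library. This value is shared by 7.61% to 13.7% of the peaks, depending on the library, so a difference at this region could not be seen and its percentiles, from 92.7 to 96.0, follow from the number of tied peaks. These percentiles did not overlap without control replicate 3 or without knockdown replicate 2, and differed in the same direction in all same-numbered pairs. Such calls, counted with the dependence on the processing, follow from the ties and show no difference in score. A second region, chr11:62871577-62871669, was listed in all 6 libraries at lower ranks, with percentiles of 30.7, 20.2 and 50 in the control and 75.0, 33.4 and 46.0 in the knockdown libraries. Only knockdown replicate 1 stood above all controls (difference 17.8, exact permutation test, p = 0.4), and without it the difference was 6.04. The gene had 3, 2 and 2 peaks in the control and 4, 2 and 2 in the knockdown libraries (exact permutation test, p = 1). The additional peaks were low. Control replicate 1 and knockdown replicate 1 shared a region at chr11:62870745-62870837, at percentiles of 16.6 and 6.45, and knockdown replicate 1 alone had chr11:62888331-62888875 at 18.9.

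ACSL4, the acyl-CoA synthetase that primes membrane lipids for peroxidation, had a single region, chrX:109733139-109733403, across its annotated start. A peak was listed in all 6 libraries, with 5 different extents. Because its midpoint lay 14 bases outside the span in control replicate 2 and knockdown replicate 2, the midpoint rule counts 1, 0 and 1 peaks in both groups. Its percentiles were 56.6, 43.2 and 29.2 in the control and 39.7, 33.6 and 29.1 in the knockdown libraries, with means of 43.0 ± 13.7 and 34.2 ± 5.32 (SD, n = 3 each; exact permutation test, p = 0.4). The groups overlapped, and no other ACSL4 peak was listed along its 91923 bases.

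Among the iron genes, TFRC, the transferrin receptor, had 2, 3 and 2 peaks in the control and 2, 1 and 2 in the knockdown libraries (exact permutation test, p = 0.6). Its region at the start, chr3:196081831-196082090, had the same start and end in all 6 libraries. It ranked at 88.4, 89.6 and 73.0 in the control and at 85.2, 74.3 and 83.2 in the knockdown libraries, a difference of -2.79 within the spread (exact permutation test, p = 0.6). The region inside the gene, chr3:196075159-196075360, was listed in all 3 control libraries at 56.7, 61.4 and 7.57 and in knockdown replicates 1 and 3 at 37.8 and 20.1. Control replicate 3 was thus the lowest of the 5 libraries with this peak. No TFRC peak was listed beyond this region toward the 3′ end, the part of the transcript where its iron-responsive elements are known to lie.

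FTL, the ferritin light chain, showed the largest difference in presence among the 10 genes. Its only region, chr19:48965301-48965609, began 8 bases before the annotated start and was listed in control replicate 1 and in all 3 knockdown libraries. The percentiles were 83.3 in the control library and 92.7, 62.1 and 69.1 in the knockdown libraries, so the control peak stood within the range of the knockdown peaks. The numbers were 1, 0 and 0 against 1, 1 and 1 (exact permutation test, p = 0.4, adjusted p = 1). Without control replicate 1 the peak would count as found only after knockdown, so that library decides the call. No share over all genes was taken for calls without 1 library, so this is not a result about FTL. The region covers the iron-responsive element near the 5′ end of the transcript, the hairpin through which iron regulatory proteins hold back ferritin translation. Its CAGTGN loop is shown in capitals in the last 30 bases of the RefSeq window, chr19:48965329-48965358, at bases 39 to 44 of the transcript.
FTL: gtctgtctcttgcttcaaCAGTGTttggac
The letters CAGTGN were present in the 50 bases from the start in 6.36% of all windows on the transcript strand. FTH1, the ferritin heavy chain on the minus strand of chromosome 11, had no listed peak on its own strand. A peak at the score of 3100 that overlapped the FTH1 span, ending at 61965515, was listed in 5 libraries, all but control replicate 2, and was listed on the plus strand, where it also overlapped the span of the neighbouring gene BEST1. The sources used here do not say how the strand of a peak was set. Whether this peak came from FTH1 or BEST1 RNA was not tested, so the lack of a peak for FTH1 depends on the listed strand.

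NFE2L2, the gene of NRF2, had 0 peaks by midpoint and 1 in every library when any base counted. The region chr2:177264532-177265131 reached from 404 bases before the annotated start to 195 bases after it, so the midpoints fell between 39 and 104 bases outside the span. Its percentiles were 89.4, 88.3 and 82.3 in the control and 92.7, 84.2 and 79.9 in the knockdown libraries. Knockdown replicate 1, at the score of 3100, was the highest and knockdown replicate 3 the lowest, and the means of 86.6 ± 3.83 and 85.6 ± 6.55 (SD, n = 3 each) did not separate (exact permutation test, p = 0.9).

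KEAP1, the adaptor that presents NRF2 for degradation, had 2, 2 and 3 peaks in the control and 3, 2 and 4 in the knockdown libraries (exact permutation test, p = 0.7). Its region at chr19:10491577-10492262 was the one region counted by midpoint whose percentiles separated the groups. It ranked at 44.7, 36.2 and 71.0 in the control and at 74.2, 75.4 and 71.6 in the knockdown libraries. Control replicates 1 and 2 lay far below, while control replicate 3 was less than 1 point under the lowest knockdown library. The mean was 50.6 ± 18.2 in control and 73.8 ± 1.95 in knockdown libraries (SD, n = 3 each), a difference of 23.1 (exact permutation test, p = 0.1, the smallest possible; adjusted p = 0.669 over all regions). Over 8899 regions in genes with a peak in all 6 libraries, percentiles were all higher after knockdown in 7.11% and all lower in 4.0%, and 1 of the 8 such regions in the 10 genes was all higher and 0 all lower. The second KEAP1 region inside the gene, chr19:10499395-10500080, overlapped between the groups at 40.4, 68.0 and 64.3 in the control and 74.4, 40.7 and 73.7 in the knockdown libraries (exact permutation test, p = 0.5). At the start, the region chr19:10503241-10503741 was listed in control replicates 1 and 2 at 52.8 and 80.5 and in the knockdown libraries at 40.9, 67.0 and 64.4. A region just downstream, chr19:10502388-10502687, was listed in control replicate 3 at 81.5 and in knockdown replicates 1 and 3 at 85.5 and 77.5. Control replicate 3 thus had the downstream region but not the one at the start.

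**Figure D2:**
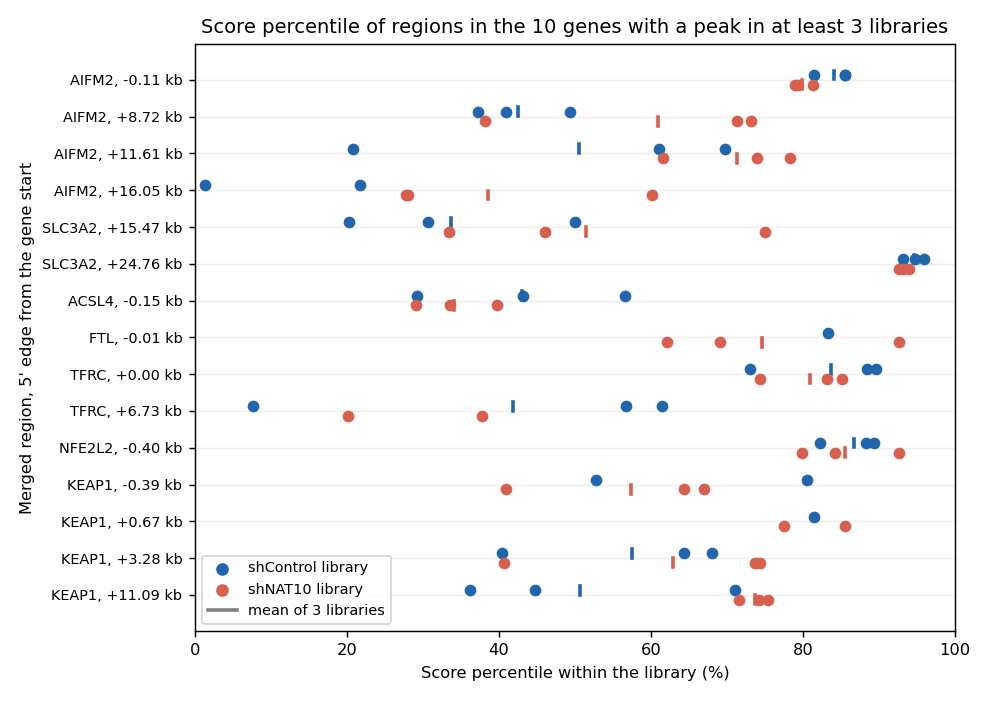
Score percentile within the library for each merged region of the 10 genes that had a peak in at least 3 libraries, named by gene and by the distance of its 5′ edge from the annotated gene start; each point is 1 library, and the tick is the mean where all 3 libraries of a group had the peak. The KEAP1 region farthest from the start is higher in all knockdown libraries and the AIFM2 region at the start lower, each with 1 control library close to the knockdown range, and each of the other regions overlaps between the groups or lacks a peak in some library.

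Counting any base, the 10 genes held 20 merged regions, and 10 of these were found in all 6 libraries. None was found throughout one group and nowhere in the other. Over the 40660 regions given to genes by midpoint, a narrower rule, this was true of 0.339% for control and 0.829% for knockdown. Of the 10 regions found in all libraries, 4 covered the annotated start of the gene (AIFM2, ACSL4, TFRC and NFE2L2), or 40%, against 23.3% of all such regions, a difference that was not tested. In 8 of the 10 the peaks had the same start and end in every library, as in 68.9% of all regions found in all 6, so peak length was not compared between the groups.

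The wider set of genes around these routes had a listed peak more often than protein-coding genes as a whole, a difference that was not tested. It held 132 further genes in 6 lists, 104 of them with a peak somewhere and 56 with one in all 6 libraries, or 78.8% and 42.4%. Over all protein-coding genes these shares were 61.3% and 29.8%. Peaks in all 6 libraries were most frequent among genes of membrane lipid peroxidation and its limits, with 15 of 25, and least among genes of iron uptake, storage and export, with 5 of 23. The glutathione list had 8 of 16, the FSP1, coenzyme Q and biopterin list 9 of 19, the mitochondrial iron list 9 of 23 and the NRF2 list 10 of 26. The median difference in peak number, knockdown minus control, was 0 over the genes of the wider lists with a peak and 0 over all genes. By list it was 0.333 for the glutathione and the mitochondrial iron list and 0 for the others. Over those of the 10 genes with a peak it was 0.5. These differences were not tested.

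In the wider lists 3 genes had more peaks in every knockdown than in every control library and 0 had fewer, or 2.88% and 0% of the 104 with a peak, beside the 1.57% and 0.659% given above for all genes. SAT1, the spermidine and spermine acetyltransferase, had no peak in control and 1 peak in each knockdown library (exact permutation test, p = 0.1, adjusted p = 1 over all genes). The peak lay at chrX:23783800-23784411 in all 3, at percentiles of 84.5, 75.2 and 93.2, and SAT1 was the only gene of the wider lists found throughout one group and nowhere in the other. It made up 0.962% of the 104 genes with a peak. Over all genes with a peak, 0.366% were found only in the knockdown libraries, and the difference was not tested. SPR, sepiapterin reductase, which completes the synthesis of tetrahydrobiopterin, had 0, 0 and 1 peaks in the control and 3, 2 and 2 in the knockdown libraries (exact permutation test, p = 0.1, adjusted p = 1). Of its 3 regions, chr2:72887360-72887736 was found in control replicate 3 and in all knockdown libraries. DHCR7, the enzyme that converts 7-dehydrocholesterol to cholesterol, had 1 peak in each control library and 3, 2 and 4 in the knockdown libraries (exact permutation test, p = 0.1, adjusted p = 1). Its region chr11:71447610-71448078 was found in all 6 libraries, and the additional peaks of the knockdown libraries lay in 5 other regions, 4 of them listed in 1 library each, at percentiles between 6.08 and 38.7. With the 50% of peaks that scored highest, the balance was 2 genes higher and 2 lower in place of 3 and 0. SAT1 was still called and SPR was not, and the difference of DHCR7 turned to -0.333 peaks. DHCR7 also lost its call when equal numbers of the highest-scored peaks were taken from each library.

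The cell type was checked against marker genes. Of 8 intestinal epithelial markers 5 had a peak in some library and 5 in all 6, or 62.5% for both. Of 8 leukocyte, fibroblast and endothelial markers 2 had a peak in some library and 0 in all 6, or 25% and 0%. Over all protein-coding genes the shares were 61.3% and 29.8%. In some library the epithelial markers thus stood near the share of all genes. These differences were not tested. A peak shows that a transcript was captured and does not measure its amount.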

How the data were processed

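acRIP-seq peak lists of 6 immunoprecipitated SW620 libraries were used, 3 shControl and 3 shNAT10, grouped by the sample labels. The authors deposited 1 list per library giving the position, strand and score of each peak. Peak names are those of MACS, and the build is GRCh38 per the labels. The aligner, caller version and settings are not given in the sources used here. The deposited score has no stated scale, is never below 50 and is tied at 3100 for many peaks, so it was used only as a rank within a library (mean rank for ties).

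Genes were taken from the RefSeq table of GRCh38.p14. The table of promoters gave the strand of 15843 of 20037 genes. SLC7A11 and FTH1 were set to minus from general knowledge, 2194 genes received the strand of most peaks lying in them alone (a rule that gave the table's strand for 99.3% of 9360 genes), and 1998 had none and accepted both. How the lists set the strand of a peak is not given, so the 99.3% does not show that the signal itself was stranded. Peaks were merged within a strand. Peak numbers and percentiles were compared by exact permutation tests over the 20 arrangements of the libraries, with Benjamini-Hochberg adjustment over all genes or regions. A gene or region was called where values did not overlap between groups, or where a peak was found throughout one group and nowhere in the other.

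The 10 genes, the lists and the tests were chosen with earlier results of these data known. All 10 genes are named, and of the wider lists those called. Merging and calls were tested on simulated data with planted clear differences and separate regions. This checks that the code finds such cases and does not measure how often it calls falsely. Same-numbered libraries were not paired, as given with the dependence on the processing. The calculations used Python 3.11.15, numpy 2.4.6 and pandas 2.3.3, and figures matplotlib 3.10.9.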

Additional observations from a re-analysis of the deposited data

How the results depend on the processing

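Of the 10 genes, 0 had peaks in one group only and 0 had numbers that did not overlap. Both counts stayed at 0 with equal numbers of highest-scored peaks (17877), any overlap, peaks in 1 gene only and strand ignored. With the 50% of peaks that scored highest, 1 gene (AIFM2) no longer overlapped in number, which rested on a peak of shControl replicate 1 at the 49.4 percentile. With a difference of at least 2 libraries, 1 gene and 1 region (FTL) were called. Over the settings that left out 1 library, genes called by presence, genes called by number and regions called by presence each ranged from 0 to 1, and the 1 came without shControl replicate 1 (FTL). Regions with percentiles that did not overlap numbered 1 (KEAP1). They were 0 with the 50% highest scores, since 2 control peaks of that region fall out, and 2 with any overlap, also when only peaks overlapping 1 gene were kept (a setting chosen after the data were seen), as the start region of AIFM2 is then counted. They ranged from 1 to 6 without 1 library, with 6 without shControl replicate 3 (in AIFM2, SLC3A2, TFRC, ACSL4 and KEAP1), 4 without shNAT10 replicate 2 and 2 without shControl replicate 1 or shNAT10 replicate 3. The KEAP1 region was among them each time, with a difference between 15.9 and 33.3. A call made with all libraries carries over when 1 is left out, and the criterion is then easier to meet. In the wider lists 3 genes were called, between 4 and 9 without 1 library, and SPR, SAT1 and DHCR7 were called in each of these. All 3 had more peaks after knockdown, whereas 0 to 2 of the genes called without 1 library, and 2 of the 4 called with the 50% highest scores, had fewer.

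With the replicate number as a block, counting differences of the same sign in all 3 same-numbered pairs, 0 genes, 5 regions and 5 genes of the wider lists were called. The 5 regions were 2 inside AIFM2 and 1 each in SLC3A2 (the one at score 3100, by ties alone), ACSL4 and KEAP1. No share over all genes or regions was taken for counts by block, without 1 library or with a difference of at least 2 libraries. Such counts are therefore not results about the genes named. The replicate numbers were not taken as pairs, because deviations from the group means correlated at 0.0295, 0.00234 and 0.0318 over regions.

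Directions that changed without 1 library concerned differences that were not called. The difference of SLC3A2 at chr11:62871577-62871669 kept its direction, between 6.04 and 26.8. The ranges that crossed 0 were -0.333 to 0.667 peaks for SLC3A2 (below 0 without shNAT10 replicate 1), and in percentile points -8.13 to 0.522 for the TFRC start, -4.63 to 1.8 for NFE2L2 and -3.21 to 16.5 for KEAP1 at chr19:10499395-10500080. The peak number of ACSL4, with a difference of 0 over all libraries, also ranged to both sides, from -0.333 to 0.333. For AIFM2 the difference in peak number fell to 0 without shNAT10 replicate 1. The difference of DHCR7 went from 2 to -0.333 with the 50% highest scores. None of the other 230 values of single genes and regions turned its direction. Where a difference or count moved, the cause was not tested beyond what is stated. With the depth unknown, a missing peak may be one that was not detectable, and scores at 3100 hide differences among the highest peaks.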
